A study of Rattus norvegicus with 19 samples.

Results

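The genes described here are 41 genes of macrophages and other leukocytes, measured on Affymetrix rat arrays of Leydig cells and bone stem cells. They were taken as the probe sets whose only gene symbol in the platform annotation is one of these genes, with the brightest probe set standing for a gene that has several. That gave a signal for 40 of the 41, among 14217 genes with a named probe set. Spi1, which encodes the macrophage transcription factor PU.1, had no named probe set in the annotation used. The 40 were divided into 22 macrophage and other myeloid genes, 14 genes shared by most leukocytes and 4 lymphocyte genes. Cd4 was placed with the shared genes, because rat macrophages as well as helper T cells carry CD4.

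All 19 samples came from Sprague-Dawley rats. The labels name 4 stages of Leydig cells, stem (n = 5), progenitor (n = 3), immature (n = 4) and adult (n = 4), and bone stem cells (n = 3), with no treatment, transgene or mutation in any group. The sources used here give neither ages nor animals per sample, nor how the cells were isolated or cultured. The study asked how gene expression changes as Leydig cells, the testosterone-producing cells between the tubules of the testis, develop.

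Macrophages are the most abundant immune cells between the seminiferous tubules, where they lie in close contact with Leydig cells. They depend on the receptor for colony-stimulating factor 1, engulf dying cells and particles with the help of Fc, scavenger and mannose receptors, and make the complement protein C1q. T cells and natural killer cells carry receptors such as CD2, CD3 and CD7 and kill target cells with granzymes. All of these cells descend from blood-forming stem cells and share the surface phosphatase CD45, whereas Leydig cells and mesenchymal stem cells do not make it.

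The value of a gene on an array is the signal of its probe set, an intensity on a linear scale that was set so that the trimmed mean of every array is 100. The median probe set of an array had a signal between 18.9 and 36.6, and 6 of the 40 genes had a group mean under 36.6 in all 5 groups. Changes are given as differences of mean log2(signal + 16) with their standard error (SE), which understates the fold of a dim gene. A gene was called higher or lower at an adjusted p under 0.05 in one limma model of all 19 arrays, adjusted over 31042 probe sets. Precision is limited by the 3 to 5 arrays of a group. In these bulk samples, more cells of a type and more RNA per cell cannot be told apart.

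Before the leukocyte genes, the labels were set against marker genes. The summed signal of 8 Leydig genes lay between 370 and 1600 on the stem Leydig arrays, 14366 and 22449 on progenitor, 12355 and 22836 on immature, and 21318 and 32220 on adult arrays, and between 83.4 and 614 on the bone stem arrays. Bone stem replicate 1 had the 614, and the other bone stem arrays 96.1 and 83.4. The signals of 7 stromal genes summed to 5588 to 9174 on stem Leydig and 7759 to 8874 on bone stem arrays. On progenitor, immature and adult arrays these sums were 3629 to 4158, 3467 to 5441 and 2872 to 3450. By correlation or by actin ratio, a pair of arrays stood apart from their groups. Immature replicate 4 had a mean correlation of 0.972 with the progenitor arrays and 0.959 with the other immature arrays, and progenitor replicate 3 had a beta-actin 3′ to 5′ ratio of 6.35, against 1.03 to 2.95 on the other arrays. Where a call of the 40 genes changes without either, it is given with and without it.

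The leukocyte genes followed 3 patterns across the groups. The lymphocyte genes were bright on progenitor and immature arrays and dim on both kinds of stem cell array. Most shared leukocyte genes were bright on progenitor, immature and bone stem arrays. Cd4 was dim in every group, and Cd48 and Arhgdib were bright on stem Leydig arrays too. Itgb2 averaged 72.1 on progenitor and 75.2 on immature, against 678 on bone stem arrays, and Cd37 averaged 53.1 on bone stem arrays. Most macrophage genes were brightest on bone stem arrays, and among the Leydig stages 13 of the 22 had their highest mean in adult cells. Of these 13, only Cd163 was called higher in adult than in immature or progenitor cells. The highest of the 5 group means lay in bone stem cells for 18 of the 22 macrophage genes, 7 of the 14 shared genes and 0 of the 4 lymphocyte genes. The 18 include C1qa, C1qb and C1qc, whose bone stem means of 391, 163 and 191 fall to 23.3, 14.1 and 17.5 without bone stem replicate 1, under their adult means of 97, 59.9 and 73.1. Without that array the count was 14 of the 22, as Ncf1 was then also brighter in another group. The highest mean lay in progenitor cells for 6 shared and 3 lymphocyte genes and for 0 macrophage genes. The share of all probe sets that were brightest in each group was not counted.

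**Figure D1:**
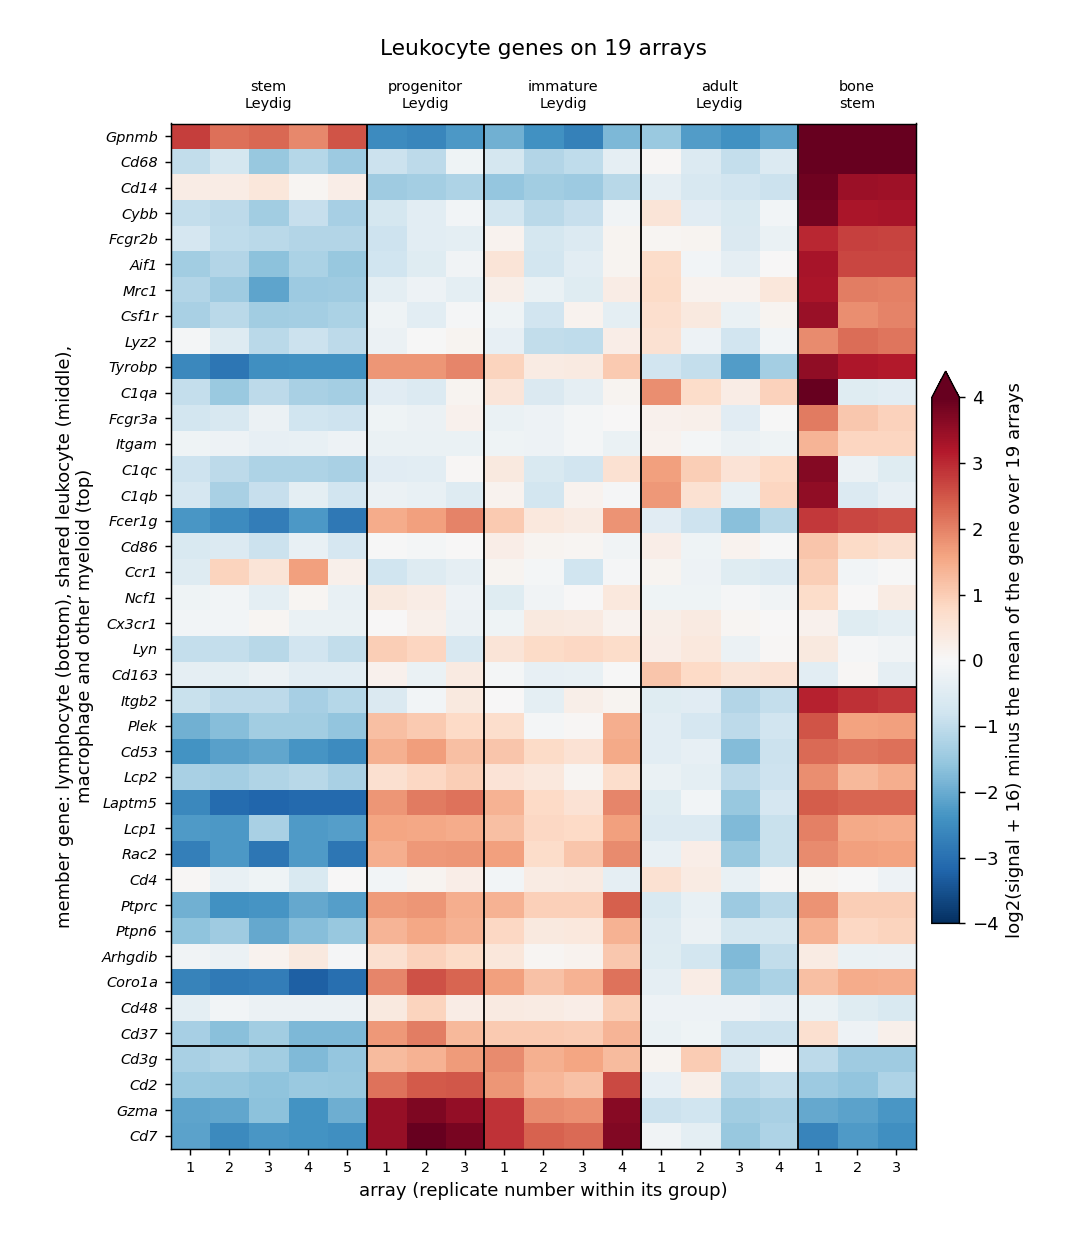
Heat map of log2(signal + 16) for the 40 genes (rows, grouped into macrophage, shared leukocyte and lymphocyte genes) on the 19 arrays (columns, by group), each row shown relative to its own mean over the arrays and colours limited at 4 log2 units either side. The lymphocyte rows are high on the 3 progenitor and 4 immature arrays, while most macrophage rows are high on the 3 bone stem arrays.

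To show the sequence around the starts of these genes, promoters were taken from a RefSeq table of the rat genome build GRCr8, which held 26 of the 40. Each window covers 250 bases before and 50 bases after the start of the gene. The motif GAGGAA, the core bound by PU.1, was searched on both strands, where it reads TTCCTC on the other strand. It may overlap the ETS-family motif GGAAGT, which has the same length. GAGGAA was found in 18 of the 26 promoters (69.2%) and in 9239 of all 33469 promoters in the table (27.6%). By list, GAGGAA was found in 12 of 16 macrophage, 4 of 7 shared and 2 of 3 lymphocyte promoters. GGAAGT was found in 14 of the 26 (53.8%) and in 22.6% of all promoters, including 7 of the 16 macrophage, 6 of the 7 shared and 1 of the 3 lymphocyte promoters. A match describes the letters in the window and does not show binding. The table held no promoter for Tyrobp, Aif1, C1qc, Fcer1g, Lyn, Fcgr2b, Lcp1, Lcp2, Rac2, Itgb2, Arhgdib, Plek, Cd4 and Cd7. A promoter is printed for each pattern described below, 5′ to 3′ along the gene's own strand, with GAGGAA or TTCCTC in capitals. The only match of Gzma begins 33 bases after the start of the gene, and 1 of the 2 matches of Cd68 begins 4 bases after it. Cd68 (chr10:54882392-54882691, minus strand) and C1qb (chr5:154407778-154408077, minus strand) were high on bone stem arrays, on all of them and on 1 of them. Cd163 (chr4:158770524-158770823, plus strand), with no match, was brightest in adult Leydig cells, though dim there too. Laptm5 (chr5:148371630-148371929, plus strand) and Gzma (chr2:46485647-46485946, minus strand) stand for the shared and the lymphocyte genes.
Cd68: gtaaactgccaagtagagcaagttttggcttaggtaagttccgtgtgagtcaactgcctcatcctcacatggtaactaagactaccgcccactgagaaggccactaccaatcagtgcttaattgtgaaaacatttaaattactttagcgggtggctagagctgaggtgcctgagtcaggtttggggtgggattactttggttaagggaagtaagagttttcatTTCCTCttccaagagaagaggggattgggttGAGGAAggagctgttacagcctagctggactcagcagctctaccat
C1qb: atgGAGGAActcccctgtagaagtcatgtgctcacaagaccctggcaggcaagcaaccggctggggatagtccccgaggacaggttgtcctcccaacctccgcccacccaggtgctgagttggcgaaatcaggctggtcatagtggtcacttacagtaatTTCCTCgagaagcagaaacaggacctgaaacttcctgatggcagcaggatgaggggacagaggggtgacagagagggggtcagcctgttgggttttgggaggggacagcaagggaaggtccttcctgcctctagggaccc
Cd163: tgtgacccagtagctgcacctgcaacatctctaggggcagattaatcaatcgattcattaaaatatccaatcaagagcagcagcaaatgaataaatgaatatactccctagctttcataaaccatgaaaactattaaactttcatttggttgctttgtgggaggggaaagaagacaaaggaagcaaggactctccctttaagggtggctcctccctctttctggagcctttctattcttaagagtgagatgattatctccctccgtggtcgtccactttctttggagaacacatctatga
Laptm5: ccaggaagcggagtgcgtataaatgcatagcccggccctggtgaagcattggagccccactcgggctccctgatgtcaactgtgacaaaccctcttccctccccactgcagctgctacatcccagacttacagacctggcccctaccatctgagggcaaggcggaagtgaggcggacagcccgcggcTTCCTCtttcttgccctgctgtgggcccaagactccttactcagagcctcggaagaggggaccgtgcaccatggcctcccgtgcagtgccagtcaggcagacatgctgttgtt
Gzma: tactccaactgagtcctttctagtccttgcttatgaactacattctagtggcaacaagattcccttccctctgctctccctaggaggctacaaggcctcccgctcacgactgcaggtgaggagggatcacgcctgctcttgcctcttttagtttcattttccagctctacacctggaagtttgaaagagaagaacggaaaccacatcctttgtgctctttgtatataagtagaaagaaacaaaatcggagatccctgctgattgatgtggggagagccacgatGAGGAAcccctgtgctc

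Progenitor Leydig cells were set against stem Leydig cells to ask which leukocyte genes accompany the first step. Of the 40 genes, 26 rose and 3 fell, while 22% of all probe sets tested were called higher and 14.7% lower. All 4 lymphocyte genes rose, with a median change of 4.75, as did 13 of the 14 shared genes, with a median of 3.19. Of the 22 macrophage genes 9 rose and 3 fell, with a median of 0.56. The median change of all probe sets was 0.08.

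All 4 lymphocyte genes had every progenitor value above every stem Leydig value, as had 22.5% of all probe sets. Cd7, a receptor of T cells and natural killer cells, had signals of 22.8, 13.1, 18.2, 16.9 and 15.4 on stem Leydig arrays, 1898, 2701 and 2372 on progenitor, 1255, 862, 799 and 2223 on immature and 138, 115, 44.1 and 57.2 on adult arrays, and 11.7, 19.8 and 15 on bone stem arrays. Progenitor exceeded stem by 6.13 ± 0.29 (SE, adjusted p = 1.34e-12). Immature replicate 4 lay within the progenitor range.

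Gzma encodes granzyme A, a killing protease of cytotoxic lymphocytes. Its signals were 4.91, 5.72, 13, 1.55 and 7.68 on stem Leydig arrays, 1013, 1193 and 1034 on progenitor, 659, 321, 305 and 1113 on immature and 34.6, 36.6, 19.1 and 21.2 on adult arrays, and 6.13, 4.51 and 2.15 on bone stem arrays. Progenitor exceeded stem Leydig cells by 5.62 ± 0.30 (adjusted p = 6.09e-12), with no overlap. Cd2, an adhesion receptor of T and natural killer cells, gave 2.46, 1.94, 0.681, 2.13 and 1.84 on stem Leydig arrays, 215, 262 and 270 on progenitor, 157, 112, 98.6 and 305 on immature and 25.2, 44.8, 8.38 and 10.7 on adult arrays, and 2.71, 1.14 and 5.71 on bone stem arrays. The stem Leydig and bone stem ranges of Cd2 overlapped and lay below all other values, and the difference of progenitor minus stem was 3.89 ± 0.29 (adjusted p = 9.63e-10).

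Cd3g encodes a chain of the T cell receptor complex and marks T cells more narrowly than the other 3. It had signals of 13.9, 16.1, 11.8, 5.64 and 9.35 on stem Leydig arrays, 160, 177 and 222 on progenitor, 255, 183, 205 and 161 on immature and 63.2, 133, 32.9 and 58.4 on adult arrays, and 19.7, 11.3 and 11.6 on bone stem arrays. Unlike the other 3, its immature mean of 201 was above its progenitor mean of 186, though the ranges overlapped. The rise of progenitor over stem was 2.89 ± 0.25 (adjusted p = 1.04e-08).

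A list of 26 further T cell and natural killer cell genes that are not among the 41 moved in the same direction. Of these, 24 were higher in progenitor than in stem Leydig cells and 0 were lower, with a median of 3.00. Their summed signal was 8517 to 10753 on progenitor and 187 to 271 on stem Leydig arrays. Il2rb, a receptor chain for interleukins that sustain natural killer cells, averaged 899 ± 149 on progenitor and 14.2 ± 4.56 on stem Leydig arrays (SD, n = 3 and 5, change 4.92 ± 0.22 SE, adjusted p = 5.35e-13). Xcl1, a chemokine of activated natural killer and T cells, averaged 1472 ± 186 and 1.42 ± 0.446 on those arrays (adjusted p = 4.79e-12), and Nkg7, a protein of cytotoxic granules, 1000 ± 94.2 and 2.74 ± 2.46 (adjusted p = 9.18e-12). Among B cell genes 6 of 8 rose, and 4 of 8 without progenitor replicate 3. Their summed signal was low, at 189 to 480 on progenitor and 38.8 to 105 on stem Leydig arrays. With all arrays the rises were led by Jchain, the joining chain of antibodies. It averaged 35.9 ± 11.2 on progenitor and 3.69 ± 0.986 on stem Leydig arrays (change 1.38 ± 0.14 SE, adjusted p = 1.32e-07). Its progenitor mean was under the highest array median of 36.6.

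Among the shared leukocyte genes, Coro1a and Laptm5 changed most. Laptm5, a lysosomal membrane protein of blood cells, had signals of 16.7, 6.95, 5.67, 6.58 and 6.37 on stem Leydig arrays, 647, 810 and 865 on progenitor, 498, 323, 275 and 734 on immature and 123, 163, 52.6 and 106 on adult arrays, and 1025, 965 and 968 on bone stem arrays. The stem values lay far below those of every other group, and progenitor exceeded stem by 5.02 ± 0.27 (adjusted p = 9.52e-12). Coro1a, the actin-binding protein coronin 1A of leukocytes, gave 11.4, 8.41, 9.29, 2.04 and 5.53 on stem Leydig arrays, 657, 1004 and 851 on progenitor, 521, 377, 440 and 762 on immature and 120, 195, 44.3 and 56.2 on adult arrays, and 382, 472 and 455 on bone stem arrays. Its change of 5.19 ± 0.30 (adjusted p = 2.62e-11) was the largest of the 14 shared genes in this comparison.

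Cd53, a tetraspanin of the leukocyte surface, had signals of 23.5, 30.0, 33.4, 24.2 and 20 on stem Leydig arrays, 539, 648 and 466 on progenitor, 434, 334, 295 and 577 on immature and 139, 150, 47.2 and 99.6 on adult arrays, and 987, 900 and 941 on bone stem arrays. Ptpn6, a phosphatase that restrains signalling in blood cells, gave 16.8, 21.2, 8.12, 14.7 and 18.9 on stem Leydig arrays, 239, 277 and 246 on progenitor, 162, 116, 119 and 246 on immature and 53.6, 68.4, 45.0 and 44.6 on adult arrays, and 243, 161 and 170 on bone stem arrays. In both genes every stem Leydig value was below every value of the other 4 groups, and progenitor exceeded stem by 3.74 ± 0.24 for Cd53 (adjusted p = 1.61e-10) and 3.09 ± 0.20 for Ptpn6 (adjusted p = 1.83e-10).

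Ptprc encodes CD45, the defining surface protein of leukocytes. Its signals were 16.5, 6.94, 8.2, 13.9 and 10.8 on stem Leydig arrays, 382, 406 and 323 on progenitor, 307, 222, 223 and 630 on immature and 64.8, 85.1, 29.3 and 42.4 on adult arrays, and 417, 226 and 229 on bone stem arrays. Stem Leydig arrays were thus the lowest of the 5 groups with no overlap, and immature replicate 4 was the highest array of all. The rise of progenitor over stem was 3.83 ± 0.29 (adjusted p = 1.49e-09), and a second Ptprc probe set gave 3.33 (adjusted p = 3.03e-07).

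The remaining shared genes included Rac2, a small GTPase of blood cells, Lcp1, an actin-bundling protein, Cd37, a tetraspanin, Plek, a substrate of protein kinase C in platelets and leukocytes, and Lcp2, a signalling adaptor. Their changes were 4.26, 3.61, 3.30, 2.61 and 2.06, each with all progenitor values above all stem values. Itgb2, the beta chain of leukocyte integrins, rose by 0.99 ± 0.20 (adjusted p = 0.000532) and Cd48, a ligand of natural killer and T cell receptors, by 0.78 ± 0.15 (adjusted p = 0.000414). Cd48 and Arhgdib differ from the rest in that they were already bright in stem Leydig cells, where Cd48 averaged 688 ± 48.2 and Arhgdib 494 ± 91.1 (SD, n = 5). Cd4 was not called, at 0.29 ± 0.21 (adjusted p = 0.316).

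Arhgdib encodes a regulatory protein that is abundant in blood cells. Its signals were 434, 408, 529, 635 and 462 on stem Leydig arrays, 764, 925 and 826 on progenitor, 673, 509, 530 and 1045 on immature and 343, 285, 132 and 234 on adult arrays, and 610, 398 and 408 on bone stem arrays. Stem Leydig and bone stem values overlapped, progenitor values lay above them and adult values below. The rise of 0.76 ± 0.25 of progenitor over stem (adjusted p = 0.0208) was not called without progenitor replicate 2 (0.69, adjusted p = 0.0809) or replicate 3 (0.77, adjusted p = 0.0533).

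**Figure D2:**
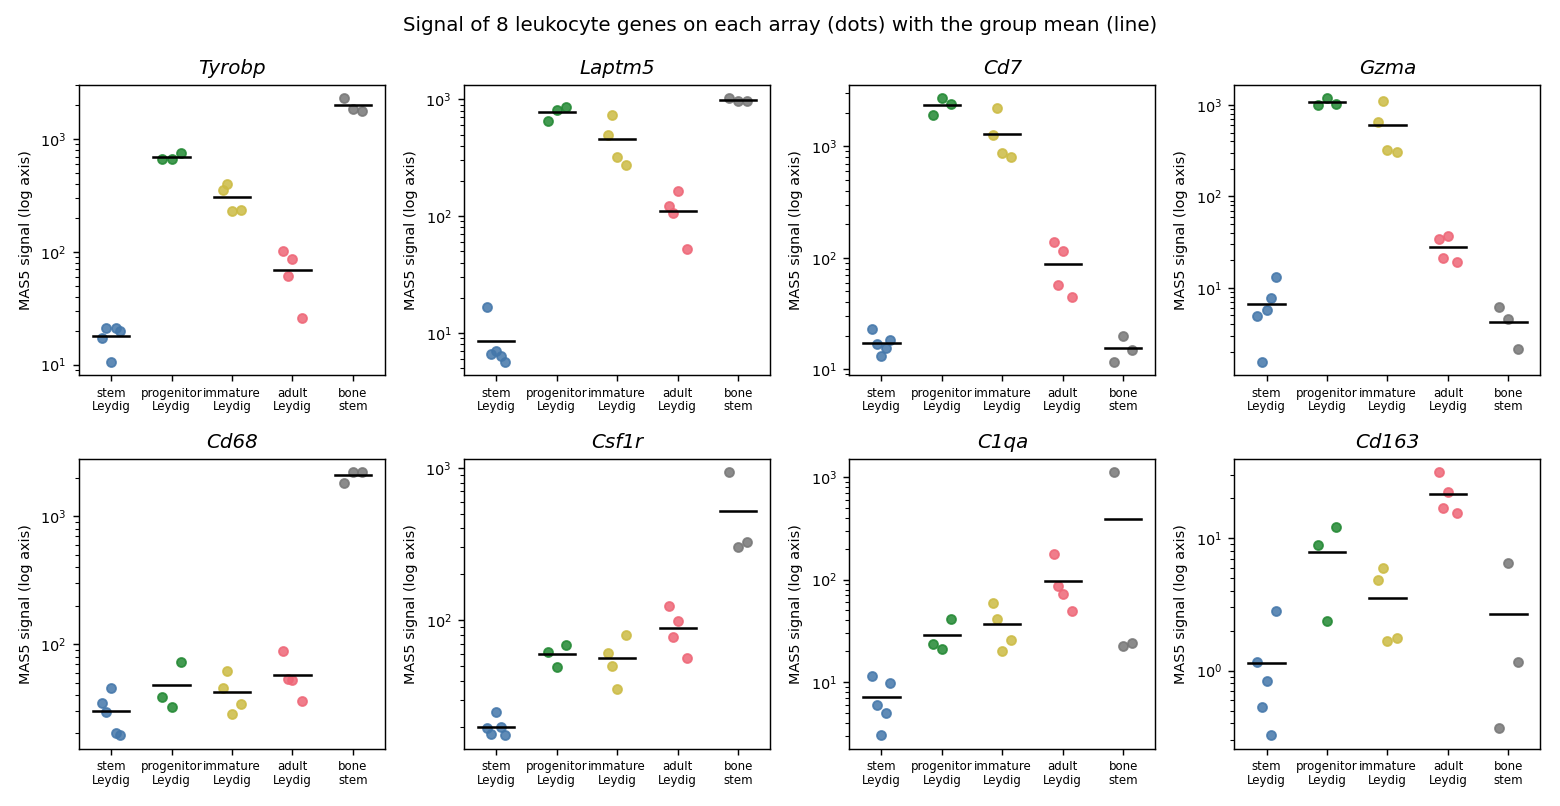
Signal (log axis) of 8 genes on each array, with dots for arrays and a line for the group mean, for the 4 Leydig stages in order and bone stem cells. Tyrobp, Laptm5, Cd7 and Gzma are high on progenitor arrays and lower on adult ones, while Cd68 and Csf1r are high on bone stem arrays, C1qa on 1 of them, and Cd163 reaches its highest values on the 4 adult arrays.

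The macrophage genes did not move as one group in the same comparison. The largest rises belonged to a pair of signalling adaptors that natural killer cells also use. Tyrobp, which couples activating receptors to kinases in myeloid and natural killer cells, had signals of 17.2, 10.6, 20, 21.2 and 21.3 on stem Leydig arrays, 666, 665 and 758 on progenitor, 355, 232, 237 and 399 on immature and 102, 85.9, 25.9 and 61.1 on adult arrays, and 2314, 1868 and 1795 on bone stem arrays. Fcer1g, the shared signalling chain of Fc receptors, gave 72.0, 62.3, 49.0, 75.3 and 45.7 on stem Leydig arrays, 1226, 1357 and 1736 on progenitor, 905, 581, 539 and 1544 on immature and 311, 236, 125 and 188 on adult arrays, and 3109, 2836 and 2698 on bone stem arrays. For both genes the means were ordered stem, adult, immature, progenitor and bone stem, with overlap only between immature and progenitor values of Fcer1g, and progenitor exceeded stem by 4.39 ± 0.25 for Tyrobp (adjusted p = 1.59e-11) and 4.25 ± 0.28 for Fcer1g (adjusted p = 1.53e-10).

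Mrc1, Csf1r and Cd163, receptors of tissue macrophages, were called higher in progenitor cells with smaller changes than Tyrobp and Fcer1g. Mrc1, the mannose receptor, had signals of 35.4, 27.1, 10.8, 25.7 and 26.8 on stem Leydig arrays, 71.9, 83.3 and 72.0 on progenitor, 119, 80.2, 66.2 and 125 on immature and 179, 112, 110 and 142 on adult arrays, and 1082, 465 and 455 on bone stem arrays. Progenitor exceeded stem by 1.19 ± 0.26 (adjusted p = 0.001) and the groups did not overlap. Csf1r, the receptor for colony-stimulating factor 1 on which macrophages depend, gave 19.5, 25.0, 17.5, 17.9 and 19.9 on stem Leydig arrays, 61.6, 49.0 and 69.0 on progenitor, 61.1, 35.2, 80.2 and 50.3 on immature and 124, 98.7, 56.8 and 77.7 on adult arrays, and 940, 300 and 327 on bone stem arrays. All Leydig values after the stem stage lay above the stem values, and progenitor exceeded stem by 1.07 ± 0.28 (adjusted p = 0.00514).

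Cd163, the haemoglobin scavenger receptor of tissue macrophages, was dim on every array. Its highest group mean was 21.6, in adult cells, under the highest array median of 36.6. Its signals were 1.16, 0.84, 2.81, 0.529 and 0.324 on stem Leydig arrays, 8.88, 2.38 and 12.2 on progenitor, 4.84, 1.67, 1.77 and 5.93 on immature and 31.7, 22.4, 15.4 and 16.9 on adult arrays, and 0.366, 6.55 and 1.17 on bone stem arrays. The 4 adult arrays stood above all 15 others. The rise of progenitor over stem was 0.45 ± 0.15 (adjusted p = 0.0221), with overlap, and was not called without progenitor replicate 1 (0.41, adjusted p = 0.0786) or replicate 3 (0.32, adjusted p = 0.156).

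Lyn, a kinase of myeloid and B cells, had signals of 23.2, 23.6, 19.6, 28.7 and 22.3 on stem Leydig arrays, 133, 121 and 32.4 on progenitor, 92.6, 113, 120 and 111 on immature and 75.4, 85.7, 48.8 and 62.9 on adult arrays, and 82.6, 57.8 and 53.5 on bone stem arrays. Progenitor replicate 3, the array with the high actin ratio, was far below the other progenitor arrays. The rise over stem was 1.34 ± 0.26 (adjusted p = 0.000337), while a second Lyn probe set gave 0.55 (adjusted p = 0.0655). The other called rises were Aif1, a calcium-binding protein of macrophages, at 0.94, Cybb, the catalytic subunit of the phagocyte oxidase, at 0.72, and Cd86, a costimulatory ligand, at 0.56. A second probe set of each of these 3 was not called, at -0.06, -0.02 and -0.15. Without progenitor replicate 3, Aif1 (0.77, adjusted p = 0.0602) and Cybb (0.57, adjusted p = 0.127) were not called either, and Cybb was also not called without replicate 2 (0.72, adjusted p = 0.057).

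The 3 macrophage genes that fell were among the brightest or the most variable in stem Leydig cells. Gpnmb, a transmembrane glycoprotein of macrophages that bone-forming and pigment cells also make, had signals of 1436, 967, 1044, 805 and 1199 on stem Leydig arrays, 21.2, 19.2 and 27.6 on progenitor, 40.3, 24.4, 17.1 and 45.9 on immature and 60.0, 29.2, 24.1 and 33.8 on adult arrays, and 3743, 4453 and 4211 on bone stem arrays. It was high in both kinds of stem cell and low in all later Leydig stages, and progenitor differed from stem by -4.82 ± 0.22 (adjusted p = 5.35e-13). Cd14, the co-receptor for bacterial lipopolysaccharide, gave 157, 154, 174, 131 and 153 on stem Leydig arrays, 36.0, 38.7 and 43.2 on progenitor, 32.1, 37.4, 34.9 and 49.2 on immature and 93.6, 74.5, 66.8 and 61.3 on adult arrays, and 2046, 1491 and 1441 on bone stem arrays. Its progenitor minus stem difference was -1.61 ± 0.14 (adjusted p = 1.79e-08), and its adult values lay between those of stem and immature cells.

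Ccr1, a chemokine receptor of monocytes, scattered over a wide range, with signals of 5.76, 41.7, 27.9, 79.7 and 19.1 on stem Leydig arrays, 1.57, 5.74 and 8.01 on progenitor, 17.0, 12.9, 1.91 and 14.1 on immature and 17.1, 10.8, 5.87 and 5.15 on adult arrays, and 45.5, 12.3 and 14.5 on bone stem arrays. The progenitor and stem ranges overlapped, and the difference of -1.11 ± 0.35 (adjusted p = 0.0167) was not called without progenitor replicate 1 (-0.98, adjusted p = 0.0717). The other 10 macrophage genes, Cd68, C1qa, C1qb, C1qc, Lyz2, Itgam, Fcgr2b, Fcgr3a, Ncf1 and Cx3cr1, did not pass the test between progenitor and stem cells, with changes between -0.02 for Itgam, an integrin chain of myeloid cells, and 0.93 for C1qa. Without stem replicate 1, Lyz2 was called higher (0.82, adjusted p = 0.0306), and without stem replicate 3, Fcgr3a was (0.66, adjusted p = 0.0303).

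Among 30 further macrophage genes, 14 were higher and 2 lower in progenitor than in stem Leydig cells, and 10 and 1 without progenitor replicate 3. The 4 with the smallest adjusted p were Fyb1, an adaptor protein that T cells also use, Irf8, a transcription factor of monocytes and dendritic cells, the kinase gene Fgr and the chemokine gene Ccl4. Ccl4 averaged 688 ± 137 on progenitor and 19 ± 5.26 on stem Leydig arrays (SD, n = 3 and 5, adjusted p = 1.61e-09). Of 10 ligands and receptors of macrophage growth and recruitment, which include Csf1r and, from the 30, Csf2ra and Csf2rb, 3 rose and 2 fell. These counts are near the shares of all probe sets, 22% called higher and 14.7% lower. Il34, the second ligand of the Csf1r receptor, averaged 41.9 ± 6.14 on progenitor and 3.90 ± 3.28 on stem Leydig arrays (change 1.55 ± 0.24 SE, adjusted p = 3.18e-05). Ccl2, a chemokine that attracts monocytes, averaged 96.6 ± 32.6 and 1312 ± 494 on those arrays (change -3.47 ± 0.57 SE, adjusted p = 5.98e-05), and its neighbour in function Ccl7 31.2 ± 13 and 255 ± 133 (adjusted p = 0.000612).

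Genes of other blood and vessel cells were tested in the same comparison, in which 22% of all probe sets were called higher and 14.7% lower. Of 7 red blood cell genes 5 rose and 0 fell, and their summed signal was 3465 to 5399 on progenitor and 21.5 to 61.7 on stem Leydig arrays. Hbb, a haemoglobin chain, averaged 4153 ± 925 on progenitor and 2.98 ± 0.835 on stem Leydig arrays (adjusted p = 2.35e-14). Of 13 endothelial genes 9 rose and 2 fell, with sums of 1253 to 2356 on progenitor and 741 to 1007 on stem Leydig arrays. Of 6 neutrophil genes 2 rose, with sums of 75.7 to 173 and 17.6 to 27.6, and of 9 mast cell genes 3 rose, with sums of 147 to 232 and 61.1 to 81.3 on those arrays. The part of blood or vessel cells in the leukocyte changes was not tested.

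**Figure D3:**
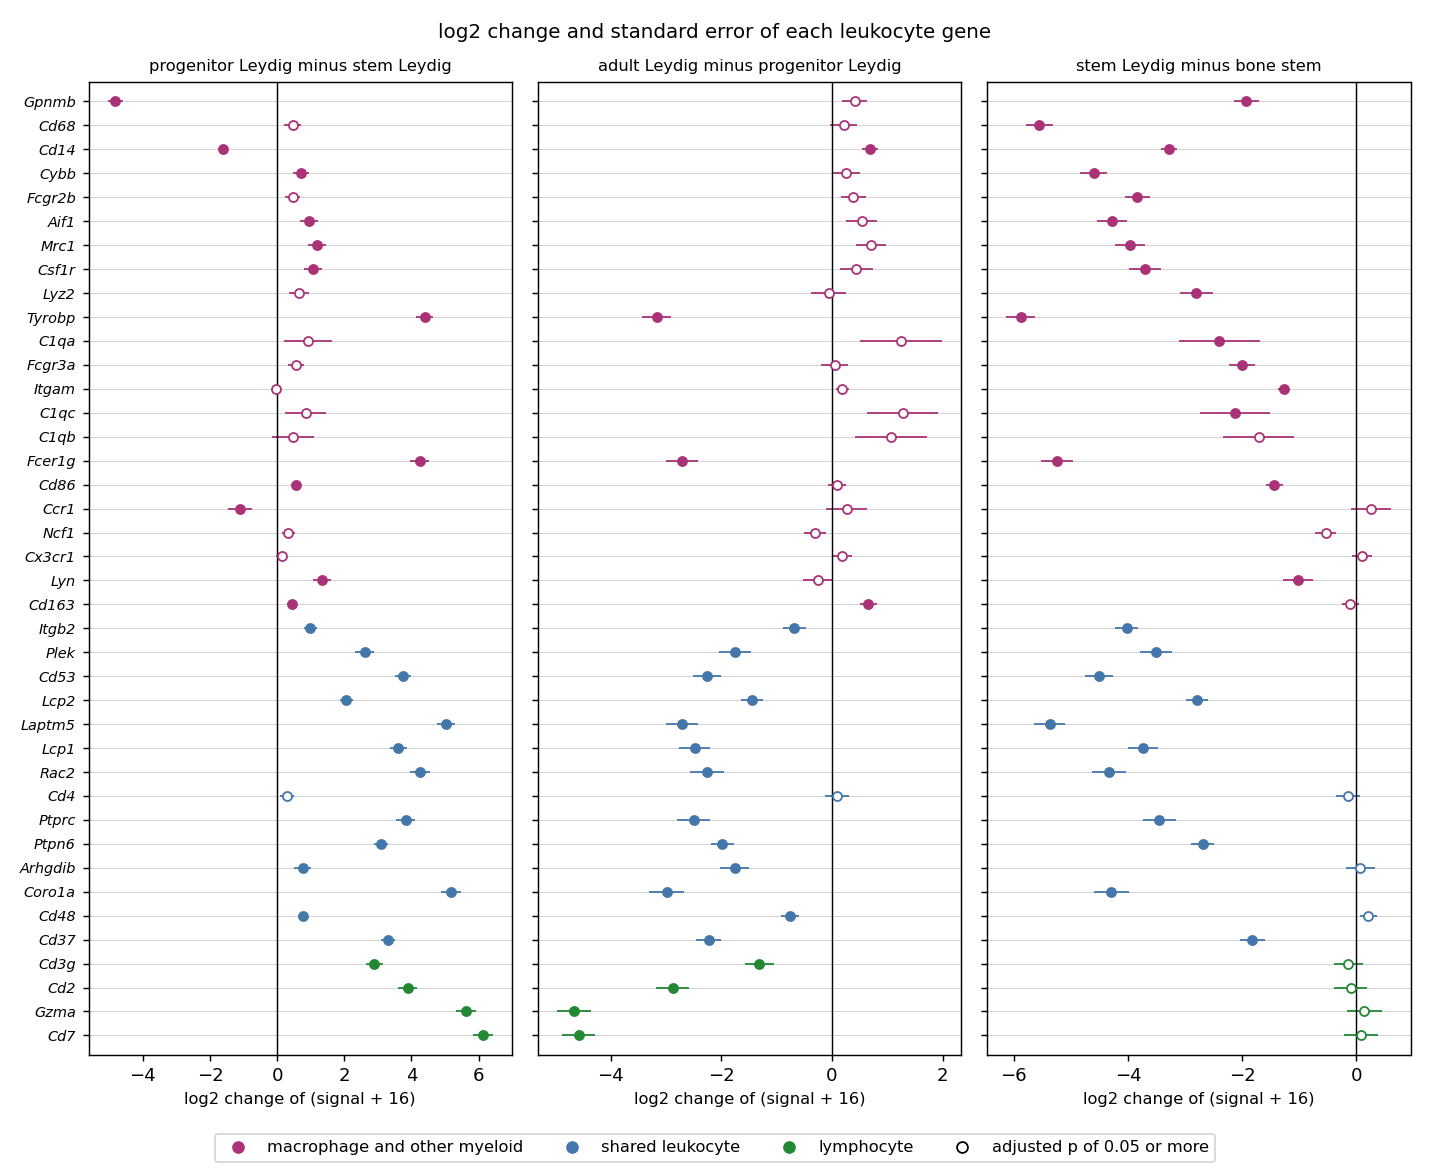
Change in mean log2(signal + 16) of each of the 40 genes with its SE for progenitor minus stem Leydig, adult minus progenitor Leydig and stem Leydig minus bone stem cells, with open circles where the adjusted p was 0.05 or more. The 4 lymphocyte genes change by 2.89 to 6.13 in the first panel and by -4.66 to -1.31 in the second, and by -0.14 to 0.14 in the third, where 28 of the 40 genes are called lower.

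Immature Leydig cells were then set against progenitor cells. Here 0 of the 40 genes were called higher and 1 lower, with 0.876% of all probe sets called higher and 0.425% lower, and the median change was -0.15 for the 40 and 0.01 for all probe sets. At an unadjusted p under 0.05 in limma, 0 of the 40 were higher and 9 lower, against 6.15% and 5.67% of all probe sets. The 1 gene was Tyrobp, at -1.18 ± 0.26 (adjusted p = 0.0244), with all immature values below all progenitor values. That call was lost when any of the 3 progenitor arrays or immature replicate 2 or 3 was left out, with adjusted p between 0.072 and 0.0952. Immature replicate 4, which correlated best with the progenitor arrays, had the highest immature signal for 3 of the 4 lymphocyte genes. Without it, 7 of the 40 genes were called lower, against 1.87% of all probe sets in that fit, at -1.31 for Tyrobp (adjusted p = 0.00717), -1.39 for Gzma (adjusted p = 0.00218), -1.26 for Cd7 (adjusted p = 0.00993), -0.87 for Ptpn6 (adjusted p = 0.0105), -1.10 for Fcer1g (adjusted p = 0.0137), -1.08 for Laptm5 (adjusted p = 0.0235) and -0.95 for Cd2 (adjusted p = 0.0438). Of the 26 further T and natural killer cell genes, 1 fell, Eomes, a transcription factor of natural killer and memory T cells, which averaged 101 ± 39.2 on immature and 210 ± 38.1 on progenitor arrays (SD, n = 4 and 3, change -0.99 ± 0.23 SE, adjusted p = 0.0325). Without progenitor replicate 3 Eomes was not called (-0.86, adjusted p = 0.127) and 0 of the 26 were, whereas 8 of the 26 were called lower without immature replicate 4.

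Adult Leydig cells were compared with immature cells, the step at which lymphocyte and shared genes were called lower with all arrays. Without immature replicate 4, some of them were already called lower in immature than in progenitor cells, as given above. Of the 40 genes 2 rose and 19 fell, against 8.05% of all probe sets called higher and 13% lower, and the median changes were -0.34 for the 40 and -0.07 for all probe sets. All 4 lymphocyte genes fell, by -3.63 ± 0.29 for Gzma (adjusted p = 2.39e-08), -3.62 ± 0.28 for Cd7 (adjusted p = 2.14e-08), -2.24 ± 0.28 for Cd2 (adjusted p = 6.27e-06) and -1.40 ± 0.24 for Cd3g (adjusted p = 0.000241). Of the 14 shared genes 13 fell and Cd4 was not called, with changes of the 13 between -2.31 for Coro1a and -0.71 for Cd48. In these 17 genes every adult value was below every immature value, as it was for 14% of all probe sets. Macrophage genes divided: Tyrobp (-1.99 ± 0.24, adjusted p = 4.11e-06) and Fcer1g (-1.91 ± 0.27, adjusted p = 2.53e-05) fell, whereas Cd163 (0.93 ± 0.15, adjusted p = 8.91e-05) and Cd14 (0.72 ± 0.14, adjusted p = 0.000751) rose, and 18 of the 22 were not called. Cybb was called higher without immature replicate 4 (0.75, adjusted p = 0.0271) or adult replicate 3 (0.71, adjusted p = 0.0493), but not with all arrays (0.56, adjusted p = 0.0999).

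Over both steps, adult minus progenitor, 2 of the 40 genes rose and 19 fell, with 9.65% of all probe sets called higher and 14.8% lower. This comparison shares its adult arrays with the one before and its progenitor arrays with the first, so the 3 are not independent. Gzma changed by -4.66 ± 0.31 (adjusted p = 1.30e-09), Cd7 by -4.58 ± 0.30 (adjusted p = 1.36e-09), Tyrobp by -3.17 ± 0.26 (adjusted p = 1.76e-08) and Ptprc by -2.50 ± 0.30 (adjusted p = 3.00e-06). Cd163 changed by 0.66 ± 0.16 (adjusted p = 0.00347) and Cd14 by 0.69 ± 0.15 (adjusted p = 0.00166), with all adult values above all progenitor values in both. Mrc1, at 0.70 ± 0.27 (adjusted p = 0.065), and C1qa, at 1.25 ± 0.74 (adjusted p = 0.261), also had every adult value above every progenitor value but were not called, and Csf1r (0.44 ± 0.30, adjusted p = 0.332) overlapped. The fall of Itgb2 (-0.68 ± 0.21, adjusted p = 0.0225) was not called without adult replicate 3 or 4 or progenitor replicate 2 or 3, at -0.44 to -0.68 (adjusted p between 0.0564 and 0.173). Lyn, at -0.26 ± 0.27 (adjusted p = 0.568), was called lower without progenitor replicate 3 (-0.78, adjusted p = 0.00398).

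The further lists were tested between adult and progenitor cells as well, where 9.65% of all probe sets were called higher and 14.8% lower. Of the 26 other T and natural killer cell genes 17 fell and 0 rose, and their summed signal was 498 to 1919 on adult and 8517 to 10753 on progenitor arrays. Il2rb averaged 56.5 ± 21.3 on adult and 899 ± 149 on progenitor arrays (SD, n = 4 and 3, change -3.69 ± 0.23 SE, adjusted p = 7.25e-10), and Xcl1 54.7 ± 30.5 and 1472 ± 186 (adjusted p = 8.78e-09). Of the 30 other macrophage genes 6 rose and 6 fell, or 4 and 6 without progenitor replicate 3. Of 8 B cell genes 5 fell, or 3 without that array. Of the same 10 ligands and receptors 3 were called higher, all of them ligands, Cxcl12, a chemokine of stromal cells, to 1722 ± 213 on adult, against 471 ± 88.5 on progenitor arrays (adjusted p = 1.37e-05), Cx3cl1, the ligand of Cx3cr1, to 190 ± 28.2, against 71.2 ± 16.5 (adjusted p = 0.00076), and Csf1, the main growth factor of macrophages, to 225 ± 13.4, against 142 ± 15.7 (adjusted p = 0.0371). Csf1 was not called without progenitor replicate 3 (0.60, adjusted p = 0.0893). Red blood cell genes fell too, 5 of 7, or 4 of 7 without progenitor replicate 3. Their sums were 274 to 706 on adult and 3465 to 5399 on progenitor arrays. In limma 0 of 13 endothelial genes were called, also at an unadjusted p under 0.05, with sums of 737 to 3502 and 1253 to 2356. Without progenitor replicate 3, 1 of the 13 was called higher. The part of blood cells in these falls was not tested.

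**Figure D4:**
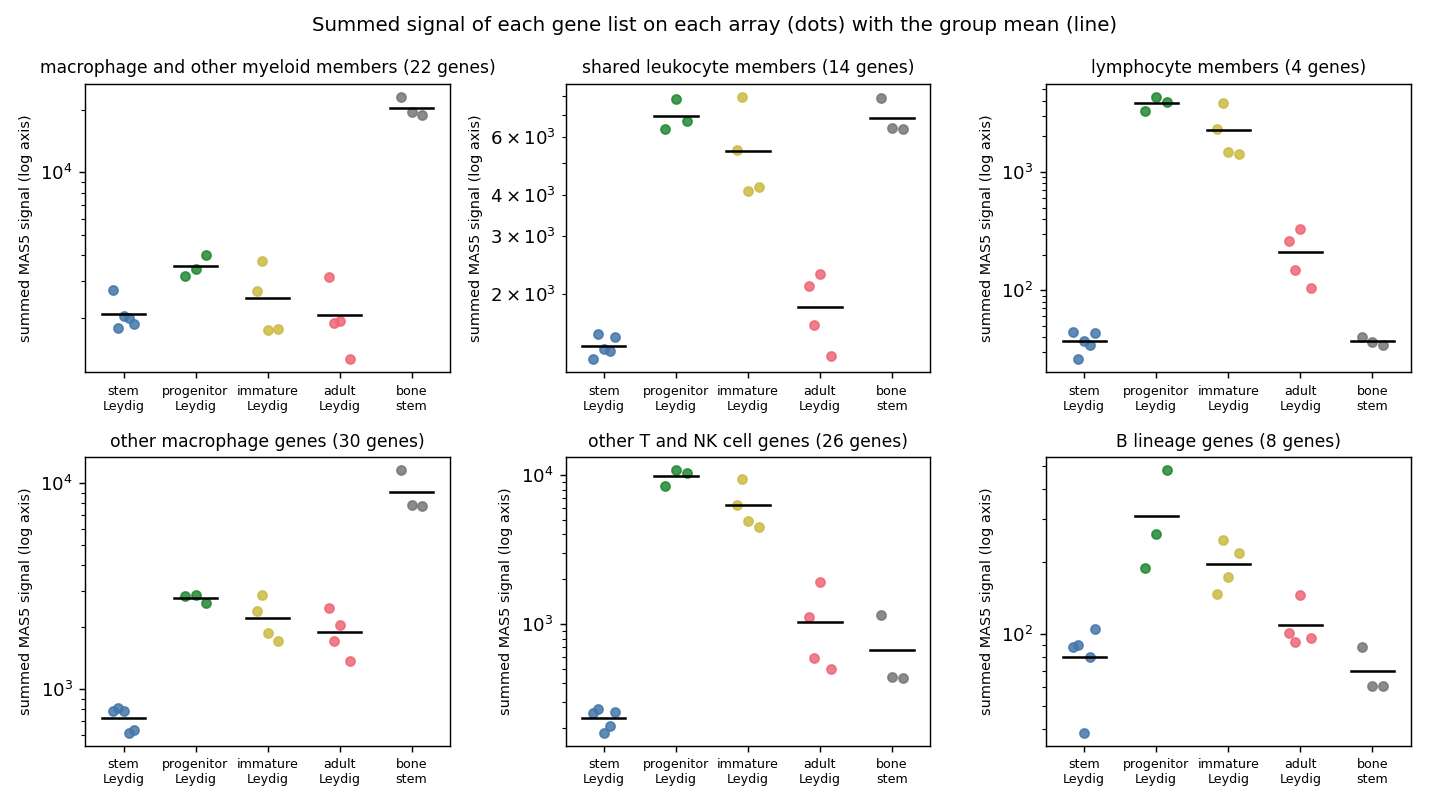
Summed signal of each gene list on every array (dots) for the 4 Leydig stages and bone stem cells, in 6 panels. The 4 lymphocyte genes sum to 3285 to 4334 on progenitor, 1408 to 3801 on immature and 105 to 329 on adult arrays, while the 22 macrophage genes sum to 18793 to 23076 on bone stem arrays and to at most 4033 on any Leydig array.

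Adult Leydig cells were also compared with stem Leydig cells. The signals of the 22 macrophage genes summed to 1273 to 3145 on adult and 1786 to 2736 on stem Leydig arrays, so these ranges overlapped. Bright genes weigh most in such a sum. Gpnmb averaged 36.8 on adult and 1090 on stem Leydig arrays, and Lyz2 842 and 539, so the overlap does not describe most of the 22 genes. In that comparison 29 of the 40 genes were higher and 4 lower, against 21.3% and 20.5% of all probe sets. The stem arrays are those of the first comparison and the adult arrays those of the last 2, so the values are not independent of them. The 29 comprise 15 of 22 macrophage, 10 of 14 shared and 4 of 4 lymphocyte genes. Mrc1 differed by 1.89 ± 0.24 (adjusted p = 1.17e-06), Cd163 by 1.12 ± 0.14 (adjusted p = 9.96e-07), Csf1r by 1.51 ± 0.26 (adjusted p = 6.51e-05) and Ptprc by 1.33 ± 0.27 (adjusted p = 0.000326), each with no overlap. The C1q genes, whose products start the classical complement pathway, belong to this group: C1qa had signals of 179, 72.8, 49.4 and 86.1 on adult arrays, against 11.5, 3.01, 9.87, 5.95 and 5.02 on stem Leydig arrays (2.18 ± 0.65, adjusted p = 0.00966). C1qc (2.13 ± 0.56, adjusted p = 0.00387) and C1qb (1.54 ± 0.57, adjusted p = 0.0349) followed, and adult replicate 1 was the highest adult array for all 3. C1qb was not called without any single one of adult replicates 1, 2 and 4 or stem replicates 2, 3 and 5, with adjusted p between 0.0534 and 0.131.

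The 4 genes lower in adult than in stem Leydig cells were Gpnmb (-4.41 ± 0.20, adjusted p = 2.22e-13), Cd14 (-0.92 ± 0.13, adjusted p = 7.29e-06), Arhgdib (-1.0 ± 0.23, adjusted p = 0.00117) and Ccr1 (-0.83 ± 0.32, adjusted p = 0.0431). The adult and stem values of Gpnmb, Cd14 and Arhgdib did not overlap, while Ccr1 was not called when any one of adult replicates 2, 3 and 4 or stem replicates 2, 3 and 4 was left out, with adjusted p between 0.062 and 0.134. Cd68, the endosomal glycoprotein by which macrophages are commonly stained, differed by 0.66 ± 0.22 (adjusted p = 0.0188), but not without adult replicate 1 (0.48, adjusted p = 0.0979) or stem replicate 5 (0.59, adjusted p = 0.0514). Fcgr3a, an activating Fc receptor, differed by 0.61 ± 0.21 (adjusted p = 0.0224), a call lost without adult replicate 1 or 2 or stem replicate 5. A second Cd86 probe set was called lower (-0.51, adjusted p = 0.0385), opposite to the brighter one (0.65, adjusted p = 0.00075), so the direction of Cd86 is uncertain. Second probe sets of Aif1 (0.14), Lyn (0.07) and Lcp2 (0.38) were not called, while the brighter ones were. Lyz2, the lysozyme of macrophages, was not called (0.60 ± 0.27, adjusted p = 0.0834), as were Itgam, Ncf1, Cx3cr1, Itgb2, Cd48 and Cd4. Lyz2 was called higher without adult replicate 3 (0.81, adjusted p = 0.0223) or stem replicate 1 (0.76, adjusted p = 0.0272), and Cd4 without adult replicate 3 (0.53, adjusted p = 0.0371).

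Stem Leydig cells were set against bone stem cells to ask what sets the stem cells of the testis apart from those of bone. Of the 40 genes 0 were called higher in stem Leydig cells and 28 lower, while 9.79% of all probe sets were called higher and 8.73% lower. The median change was -2.54 for the 40 genes and 0.05 for all probe sets. The 28 were 17 of the 22 macrophage genes, 11 of the 14 shared genes and 0 of the 4 lymphocyte genes, whose changes lay between -0.14 and 0.14. The bone stem arrays thus carried the signals of CD45 and of macrophage genes given above, although their label names stem cells, whereas the ranges of the 4 lymphocyte genes overlapped between stem Leydig and bone stem arrays. At an unadjusted p under 0.05 in limma, 0 of the 40 genes were higher and 30 lower, against 16% and 12.9% of all probe sets, and 0 of the 4 lymphocyte genes differed.

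Cd68 had signals of 34.6, 45.3, 19.3, 29.3 and 20.2 on stem Leydig arrays, against 1825, 2226 and 2232 on bone stem arrays. The values of the other Leydig groups overlap the stem Leydig range and lie far below the bone stem values. They were 32.4 to 72.0 on progenitor, 28.5 to 61.4 on immature and 35.8 to 87.9 on adult arrays. The difference of stem Leydig minus bone stem was -5.55 ± 0.24 for Cd68 (adjusted p = 1.73e-12), -5.88 ± 0.25 for Tyrobp (adjusted p = 1.31e-12) and -5.25 ± 0.28 for Fcer1g (adjusted p = 3.54e-11). Cybb (-4.60 ± 0.24), Aif1 (-4.28 ± 0.27), Mrc1 (-3.96 ± 0.26), Fcgr2b, an inhibitory Fc receptor (-3.84 ± 0.22), and Csf1r (-3.71 ± 0.28) were lower by more than 3 log2 units as well, all with no overlap, though a second Aif1 probe set was not called (-0.07) and that of Cybb gave -1.82. Lyz2 averaged 539 ± 178 on stem Leydig and 3717 ± 429 on bone stem arrays (SD, n = 5 and 3), and Gpnmb 1090 ± 240 and 4136 ± 361, so both were bright in stem Leydig cells and still brighter in bone stem cells.

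The C1q genes stood apart from the other macrophage genes in bone stem cells, since a single array carried their signal. C1qa had 11.5, 3.01, 9.87, 5.95 and 5.02 on stem Leydig arrays, against 1126, 22.4 and 24.2 on bone stem arrays. C1qb had 9.43, 0.54, 5.24, 15 and 7.86 on stem Leydig arrays, against 461, 11.7 and 16.5 on bone stem arrays, and C1qc 7.99, 4.75, 2.22, 2.24 and 1.37, against 537, 20.2 and 14.8. Bone stem replicate 1 was also the highest bone stem array for Csf1r, Mrc1, Ptprc and Fcgr3a, but the other bone stem arrays were high for these genes as well. C1qa (-2.40 ± 0.71, adjusted p = 0.0208) and C1qc (-2.12 ± 0.61, adjusted p = 0.018) were called with all arrays and not without bone stem replicate 1, at -0.78 (adjusted p = 0.123) and -0.77 (adjusted p = 0.125). C1qb was not called (-1.71 ± 0.62, adjusted p = 0.0618), but was without bone stem replicate 2 (-2.43, adjusted p = 0.0162) or replicate 3 (-2.31, adjusted p = 0.0275). Lyn, at -1.02 ± 0.26 (adjusted p = 0.00838), was not called without replicate 1 either (-0.86, adjusted p = 0.054). The C1q genes and Cd68 were picked for per-array values after their signals were seen.

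The macrophage genes that were not called between the stem cell types, other than C1qb, were Cd163 (-0.11 ± 0.15, adjusted p = 0.714), Cx3cr1, the fractalkine receptor (0.10 ± 0.17, adjusted p = 0.788), Ccr1 (0.26 ± 0.35, adjusted p = 0.715) and Ncf1, a cytosolic subunit of the phagocyte oxidase (-0.54 ± 0.19, adjusted p = 0.0505). Ncf1 was called lower without stem replicate 4 (-0.60, adjusted p = 0.0398) or bone stem replicate 2 (-0.71, adjusted p = 0.0279). Cd163 was thus near the bottom of the scale on bone stem arrays, where Cd68 and Mrc1 were bright. Among the shared genes Cd48 (0.21 ± 0.15, adjusted p = 0.417), Arhgdib (0.07 ± 0.25, adjusted p = 0.907) and Cd4 (-0.15 ± 0.21, adjusted p = 0.738) were not called, while the other 11 differed by -5.37 for Laptm5 to -1.82 for Cd37.

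Of the 30 other macrophage genes 24 were lower in stem Leydig than in bone stem cells and 0 higher. Trem2, a lipid-sensing receptor of macrophages and osteoclasts, averaged 1.52 ± 0.446 on stem Leydig and 261 ± 43.9 on bone stem arrays (SD, n = 5 and 3, change -3.97 ± 0.12 SE, adjusted p = 8.59e-15). Folr2, a folate receptor of tissue macrophages, averaged 24.5 ± 5.45 and 957 ± 74.0 on those arrays (adjusted p = 5.17e-14), and Fcgr1a, the high-affinity Fc receptor, 8.16 ± 3.02 and 491 ± 141 (adjusted p = 2.32e-12). Of the 26 other T and natural killer cell genes 5 were lower, led by Gzmb, a granzyme, at 11.7 ± 3.50 on stem Leydig and 373 ± 359 on bone stem arrays (adjusted p = 3.10e-06). Bone stem replicate 1 had 788 for Gzmb and the other bone stem arrays 161 and 171, and without replicate 1 the difference was -2.72 (adjusted p = 1.17e-05). In limma 0 of 8 B cell, 0 of 6 neutrophil and 0 of 9 mast cell genes were called, and at an unadjusted p under 0.05 these counts were 0, 2 and 0. Red blood cell genes summed to 21.5 to 61.7 on stem Leydig and 19.8 to 43.6 on bone stem arrays, and limma called 0 of 7, with 1 at an unadjusted p under 0.05. The part of other cell types in these differences was not tested.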

How the data were processed

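The arrays measured RNA of 19 samples in 5 groups, taken from the labels. Per the labels' protocols, RNA was extracted with Trizol and columns, and 6 ug was labelled as biotin cRNA. The authors deposited 1 linear intensity per probe set and array. Per the submitters' processing notes, GCOS and MAS5 produced these, and each array is scaled to a 2% trimmed mean of 100 per array. No depth or detection calls were used.

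Of 31099 probe sets, 57 controls were left out. In the platform annotation 20826 probe sets of those tested have 1 gene symbol, 436 several and 9780 none. All 40 measured genes matched a symbol in RefSeq.

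Signals were taken as log2(signal + 16). One model with 5 group means and an intensity trend was fitted in limma 3.58.1 (R 4.3.3), two-sided, with Benjamini-Hochberg adjustment over 31042 probe sets. Python 3.11.15, pandas 2.3.3 and matplotlib 3.10.9 did the rest. The model was tested on simulated data. Whether replicates are separate animals or cultures is not in the labels, so a p-value here reflects the spread of these arrays alone, and that spread may be technical.

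The 41 genes, the lists of other cells and the rule for named genes were chosen with earlier results of these data known. The rule gives array values for the 6 macrophage, 4 shared and all 4 lymphocyte genes with the smallest adjusted p in progenitor minus stem cells, for genes called against most of their list, and for Ptprc, Csf1r, Cd163 and Mrc1. Genes outside the 41 are named only from lists, up to 4 per list and comparison with the smallest adjusted p. Other normalizations, pseudocounts, filters, weights, fits and left-out arrays were tried as alternatives. Same-numbered samples of different groups did not deviate together: over 33 pairs the correlation of deviations ran from -0.27 to 0.26, with 5 over 0.1.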

Additional observations from a re-analysis of the deposited data

Results flagged for a closer look

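Within groups of 4 or 5 arrays, 120 pairs of a gene and a group were tested with Dixon's criterion for a single array far from the others, and 5 were marked, where chance alone marks about 1 in 20. Cd48, the ligand of lymphocyte receptors, had a signal of 1613 on immature replicate 4, against 991 to 1043 on the other immature arrays. The tetraspanin gene Cd37 had 131 on the same array, against 101 to 104. Cd48 had 650 on adult replicate 4, against 704 to 714 on the other adult arrays, a small gap that stands out because those 3 lay close together. Laptm5 had 16.7 on stem Leydig replicate 1, against 5.67 to 6.95, all at the bottom of the scale. Lcp1, the actin-bundling protein, had 109 on stem Leydig replicate 3, against 46.1 to 50.4. Progenitor and bone stem cells, with 3 arrays each, were not tested.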

How the results depend on the processing

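Over 6 comparisons of 40 genes, 32 settings gave 4964 values. Of these, 4786 kept their side of the threshold, 102 lost the call, 76 gained one and 0 reversed. A reversal was counted only where a value was called in the main or the alternative fit. Changes of sign among uncalled values count as kept. In adult minus immature cells the count called higher, 2, became 4 with median centring, 1 without the lowest 40% of probe sets and 0 with a 2-fold minimum. In adult minus progenitor cells the count called higher, 2, became 4 with median centring, 1 with a pseudocount of 1, 4 with array weights, 5 with only the groups compared in the fit and 0 with a 2-fold minimum. In immature minus progenitor cells the count called lower, 1, became 0 with a pseudocount of 1, with only the groups compared or with the closest pairs averaged, 6 with array weights, and 4 without immature replicate 4 and progenitor replicate 3. That pair of arrays and the averaging were chosen with earlier results of these data known. The count lower in adult than in stem Leydig cells, 4, became 2 with a 2-fold minimum, and 1 gene, Cd48, was called higher in stem Leydig than in bone stem cells with array weights. The cause of these shifts was not tested, except that a 2-fold minimum removes small changes by construction.

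With single arrays left out, the count called higher ran from 22 to 27 and lower from 2 to 3 in progenitor minus stem, 0 to 0 and 0 to 7 in immature minus progenitor, 2 to 3 and 19 to 19 in adult minus immature, 2 to 2 and 18 to 19 in adult minus progenitor, 26 to 31 and 3 to 4 in adult minus stem, and 0 to 0 and 25 to 30 in stem Leydig minus bone stem. The 7 were reached without immature replicate 4. With the replicate number as a block, 25 genes rose and 3 fell in progenitor minus stem, and 234 of the 240 values kept their call, while Itgb2 in adult minus progenitor (-0.64, adjusted p = 0.0629), Cd163 in progenitor minus stem (0.43, adjusted p = 0.075) and Cd68 (0.59, adjusted p = 0.0686) and Fcgr3a (0.56, adjusted p = 0.0751) in adult minus stem lost it, and Mrc1 in adult minus progenitor (0.65, adjusted p = 0.0302) and C1qb in stem Leydig minus bone stem (-1.79, adjusted p = 0.0407) gained one. Same-numbered samples share only a number, so this fit is not a paired test. Median centring moved the median change of all probe sets to -0.15, against 0.08 as deposited, in progenitor minus stem, to 0.11, against -0.07, in adult minus immature and to 0.12, against -0.05, in adult minus progenitor. The share of calls that were higher was then 34.3%, against 59.9%, in the first, 65.2%, against 38.2%, in the second and 62.8%, against 39.5%, in the third, and 40.7%, against 52.9%, in stem Leydig minus bone stem. Leaving single arrays out of the counts for the lists of other cells was chosen after seeing the data. Groups of 3 to 5 arrays, dim signals with no tested floor, unknown isolation and unknown independence of the samples limit all results. The closest arrays, bone stem replicates 2 and 3, had a median difference of 0.0639 log2 units among brighter probe sets and were counted separately.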

Other observations

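Germ cell genes, which no leukocyte list holds, rose along the later Leydig stages. Of 11 such genes 6 were higher in immature than in progenitor cells and 0 lower, against 0.876% and 0.425% of all probe sets. In adult minus progenitor cells 7 were higher and 1 lower, against 9.65% and 14.8%. Without progenitor replicate 3 the counts were 4 and 0 in the first and 7 and 2 in the second. Without immature replicate 4 those of the first were 7 and 0. Odf1, a protein of the sperm tail, averaged 996 ± 629 on adult and 13.2 ± 9.56 on progenitor arrays (SD, n = 4 and 3, change 4.95 ± 0.35 SE, adjusted p = 2.86e-09). Their summed signal was 1430 to 3246 on adult and 179 to 383 on progenitor arrays, opposite in direction to the lymphocyte genes. Of 13 endothelial genes 2 fell in immature minus progenitor cells, against 0.425% of all probe sets, and 9 rose in adult minus immature cells, against 8.05%. Without immature replicate 4 these counts were 5 and 7, and without progenitor replicate 3 the first was 0. Cldn5, a tight junction protein of vessels, averaged 114 ± 121 on immature and 499 ± 221 on progenitor arrays (change -2.27 ± 0.52 SE, adjusted p = 0.0324), and 763 ± 513 on adult and 114 ± 121 on immature arrays (change 2.65 ± 0.48 SE, adjusted p = 0.000429). Without immature replicate 4 these changes of Cldn5 were -2.81 (adjusted p = 0.000954) and 3.19 (adjusted p = 2.51e-05), and without progenitor replicate 3 the first was not called (-1.94, adjusted p = 0.137).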
